A study of Mus musculus with 12 samples.

Results

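MLL-AF9 leukemia cells collected from NSG mice were compared with the same leukemia collected from wild-type (WT) mice, to describe what the host's immune state left alike in the leukemia and where single genes stood apart. The 8 libraries were chosen by the host named in their labels, 4 NSG and 4 WT, out of 12 libraries in the series. The other 4 came from Rag2-/- hosts, which lack mature T and B cells, and enter only where their values are set beside these. Of the 55401 genes in the file, 15030 reached 1 TPM on average (transcripts per 1000000, a length-corrected share of a library's reads) over the 8 libraries and were compared on the log2(TPM + 1) scale.

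All libraries were made from the bone marrow of young adult female mice. The leukemia was made by transducing mouse bone marrow progenitors with MLL-AF9, a fusion oncogene, and GFP. More than 10 rounds of transplantation preceded its transfer to these hosts. GFP+ cells were sorted before total RNA was extracted and poly-A RNA was sequenced from both ends. WT hosts were immunologically normal C57BL/6 mice, in which T, B and NK cells are present. T, B and NK cells are all missing from NSG hosts, which are of the NOD strain, so that strain and immune deficiency cannot be told apart in this comparison. The study took the cells from moribund mice and reports earlier leukemia onset in NSG hosts. Time in the host may therefore differ too, and cannot be told apart from them. Each library was labelled as a biological replicate, and because 1 serially passaged leukemia fed all of them, the p-values below measure the spread between mice that carried it.

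As background, MLL-AF9 is a transcriptional regulator that keeps Hoxa9 and its partner Meis1 active in myeloid progenitors, and the cells it transforms resemble granulocyte and monocyte progenitors with neutrophil granule proteases. T cells see tumor cells through peptides on classical MHC class I molecules. NK cells read both the loss of those molecules and the presence of stress ligands. Hosts that lack these lymphocytes are therefore used to ask whether leukemia grows or looks different without them.

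The leukemia looked much alike in the hosts. With limma's moderated test and Benjamini-Hochberg adjustment, 0 genes were called higher (0% of those tested) and 0 lower (0%) in NSG libraries at an adjusted p below 0.05 and a log2 fold change beyond 0.5, and 0 were called without a limit on the fold change. The lowest adjusted p was 0.0749, and with a variance prior without a trend 2 genes, both small RNA genes, were called higher. At an unadjusted p below 0.05, 616 genes were higher (4.1%) and 537 were lower (3.57%). The median log2 fold change over all genes was 0.00, and the median of its size without sign was 0.11. For 8953 genes (59.6%), the 95% confidence interval of the log2 fold change lay between -0.5 and 0.5, so a difference of that size was outside the interval. The share was 89.7% among the 7373 genes averaging 20 TPM or more and 7.998% among the 3951 genes with a mean under 5 TPM, where little can be said either way. All 4 NSG libraries lay above all 4 WT libraries for 331 genes (2.2%) and below them for 359 (2.39%).

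**Figure D1:**
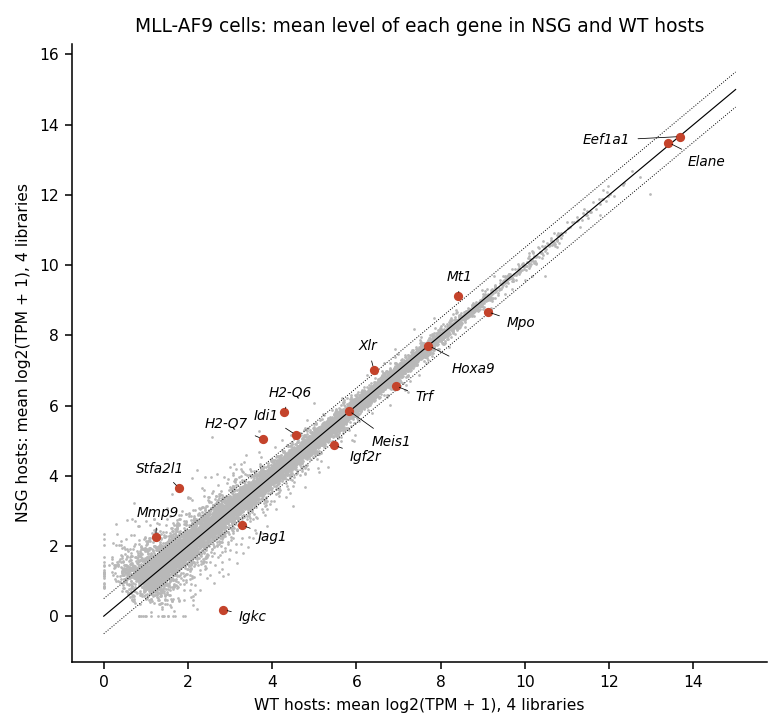
Mean log2(TPM + 1) of each of the 15030 genes tested, with WT hosts on the x axis and NSG hosts on the y axis (4 libraries each). The solid line marks equal means and the dotted lines a log2 difference of 0.5; named genes are in red, and 93.3% of genes lie between the dotted lines.

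Targets of the oncogene were at like levels in both hosts. Hoxa9 (ENSMUSG00000038227, chromosome 6, 52223100 to 52231089 in GRCm38), the homeobox gene that MLL fusions depend on, was at 210, 208, 202 and 213 TPM in WT libraries 1 to 4 and at 192, 208, 226 and 207 TPM in NSG libraries 1 to 4. The log2 fold change was -0.00 with an interval from -0.13 to 0.13. Meis1 (chromosome 11), its cofactor, ranged from 54.2 to 55.8 TPM in WT and from 56.2 to 58.0 TPM in NSG libraries. Those groups did not overlap, yet the log2 fold change was 0.04 with an interval from -0.07 to 0.15. Of the list of 20 MLL-AF9 targets and self-renewal genes, 18 were tested, 16 had intervals inside 0.5 and the median log2 fold change was -0.00, beside 89.7% of genes averaging 20 TPM or more inside the limit and a median of 0.00 over all genes. The list was thus no closer than other genes of like level. Dot1l, a histone methyltransferase recruited by MLL fusions, was the member whose NSG libraries all lay below WT (57.8 to 64.9 against 67.8 to 73.4 TPM, log2 fold change -0.18).

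Genes of proliferation and protein synthesis were likewise near equal, as most abundant genes were: 89.7% of genes averaging 20 TPM or more had intervals inside 0.5. Of 38 cell cycle genes tested, 37 had intervals inside 0.5, with a median log2 fold change of 0.02. Mki67, which marks cycling cells, was at 244, 204, 255 and 252 TPM in WT and 288, 288, 219 and 238 TPM in NSG libraries, and the groups overlapped. Of 79 ribosomal protein genes, 68 were inside the limit (median 0.03), as were 53 of 60 nuclear genes of the respiratory chain (median 0.06) and 13 of 17 myeloid transcription factors (median -0.02). Spi1, the transcription factor PU.1, ranged from 548 to 582 TPM in WT and from 570 to 586 TPM in NSG libraries. Neutrophil elastase (Elane), a primary granule protease, was among the most abundant transcripts at 10016 to 11325 TPM in WT and 9099 to 13614 TPM in NSG libraries. The log2 fold change was 0.08, with an interval from -0.20 to 0.37.

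Nearly all genes of cholesterol synthesis had higher means in NSG libraries. The list holds the enzymes of the sterol pathway, which builds cholesterol from acetyl-CoA by way of mevalonate and squalene, with genes of sterol uptake and the regulators that switch them on when sterols are scarce. Of 24 genes tested, 23 had a higher mean in NSG libraries, against 7717 of all 15030 genes tested. The median log2 fold change was 0.22. By the unadjusted p, 11 of the 24 were higher and 0 lower, against 4.1% and 3.57% of all genes, and 10 had all NSG libraries above all WT libraries, against 2.2%. None of them passed the adjusted threshold. The list was chosen with earlier results of these data known, so these counts are a description and no test. The mean log2(TPM + 1) over the list was 4.70 to 4.78 in WT libraries and 4.89 to 5.27 in NSG libraries, without overlap.

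Idi1 (ENSMUSG00000058258, chromosome 13, 8885501 to 8892451), the isomerase that makes the reactive form of the isoprenoid unit, showed it most. It was at 21.1, 21.7, 25.4 and 22.9 TPM in WT libraries and at 37.4, 37.3, 37.0 and 28.0 TPM in NSG libraries. The log2 fold change was 0.59 (SE 0.11, adjusted p = 0.39), and it lay between 0.55 and 0.69 with any library left out. Cyp51, the sterol 14-demethylase, was at 31.3, 31.2, 29.1 and 30.8 TPM in WT and 38.3, 39.0, 58.0 and 40.8 TPM in NSG libraries (log2 fold change 0.49, SE 0.13, adjusted p = 0.54). Every NSG library was above every WT library for both genes, but a different NSG library stood out in each, replicate 4 as the lowest for Idi1 and replicate 3 as the highest for Cyp51.

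The enzymes around them leaned the same way. Squalene epoxidase (Sqle) was at 18.3 to 20.9 TPM in WT and 23.6 to 37.3 TPM in NSG libraries (log2 fold change 0.48), and squalene synthase (Fdft1) at 13.5 to 17.0 and 19.5 to 22.1 TPM (0.39). Hmgcs1, which makes the precursor of mevalonate, was at 24.6 to 27.9 and 29.9 to 42.6 TPM (0.34), and mevalonate kinase (Mvk) at 19.2 to 21.1 and 21.4 to 34.2 TPM (0.33, or 0.20 without NSG replicate 3). Msmo1, Nsdhl and Hsd17b7, which act together to strip methyl groups from sterols, had log2 fold changes of 0.44, 0.42 and 0.44. These genes, too, had their groups apart, with adjusted p of at least 0.54. Tm7sf2, a sterol reductase, was the member with a lower mean (-0.16).

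NSG replicate 3 carried part of the sterol values. Insig1, a sterol-sensing regulator, was at 44.1 to 47.7 TPM in WT and at 46.5, 39.7, 89.2 and 47.3 TPM in NSG libraries 1 to 4. Without NSG replicate 3, the list's median log2 fold change was 0.13 and 19 of 24 members had a higher mean in NSG. By the unadjusted p 10 of the 24 were higher, against 809 of all 15030 genes in that fit. The groups were apart for 10. With a library left out groups lie apart more readily, and the share over all genes was not counted for that setting. In Rag2-/- libraries, which share the WT controls, the list's summed TPM was 875 to 965, against a WT range of 805 to 837 and an NSG range of 890 to 1183.

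Sterol enzymes are known to share promoter elements, among them the CCAAT box bound by NF-Y and the sterol regulatory element bound by SREBP. To show what the members share beside their values, the 250 bases before the start of 3 of them whose groups did not overlap are given here, with CCAAT on either strand in capitals (GRCm38.p6, RefSeq, plus strand for all 3). They are chr13:119690101-119690350 for Hmgcs1, chr5:114444019-114444268 for Mvk and chrX:72918271-72918520 for Nsdhl.
Hmgcs1: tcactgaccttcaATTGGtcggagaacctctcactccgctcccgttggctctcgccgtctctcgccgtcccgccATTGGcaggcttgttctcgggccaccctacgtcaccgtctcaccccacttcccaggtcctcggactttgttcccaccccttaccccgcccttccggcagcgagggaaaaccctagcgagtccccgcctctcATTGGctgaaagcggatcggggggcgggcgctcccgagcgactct
Mvk: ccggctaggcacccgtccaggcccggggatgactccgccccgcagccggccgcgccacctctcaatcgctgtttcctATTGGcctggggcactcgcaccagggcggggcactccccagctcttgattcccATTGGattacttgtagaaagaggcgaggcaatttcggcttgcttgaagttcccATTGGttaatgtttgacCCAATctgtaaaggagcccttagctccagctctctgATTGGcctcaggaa
Nsdhl: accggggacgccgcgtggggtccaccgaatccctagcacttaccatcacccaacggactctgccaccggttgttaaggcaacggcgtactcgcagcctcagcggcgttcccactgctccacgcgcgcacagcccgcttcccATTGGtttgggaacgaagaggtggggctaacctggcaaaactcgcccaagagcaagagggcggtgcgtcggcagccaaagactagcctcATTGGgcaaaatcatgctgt

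The letters CCAAT, searched on both strands, occurred 3 times before Hmgcs1, 5 times before Mvk and 2 times before Nsdhl. Of the 25 genes of the list, 17 had a promoter entry, and 15 of these held CCAAT in the 250 bases (88.2%), against 36.9% of 9538 promoters of genes tested and 34.5% of all 27025 promoters. The letters TCACNCCAC, a form of the sterol regulatory element, were in 1 of the 17, Hmgcs1, and in 1.04% of all promoters. The 15 with CCAAT included Tm7sf2, whose mean was lower in NSG libraries, and Insig1, whose groups overlapped. A match describes the letters in this window and is no evidence of binding.

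Fatty acid synthesis did not lean as a list. Of 13 genes tested, 7 had higher and 6 lower means (median 0.01). By the unadjusted p, 3 were higher and 1 lower, against 4.1% and 3.57% of all genes. The desaturase Fads2, which makes polyunsaturated fatty acids, was at 23.03, 24.2, 25.6 and 23.6 TPM in WT and 31.6, 33.7, 50.3 and 30.7 TPM in NSG libraries (log2 fold change 0.55, adjusted p = 0.54). The elongase Elovl6 was at 23.5 to 29.9 and 30.2 to 48.0 TPM (0.36, or 0.21 without NSG replicate 3). The desaturase Scd2 pointed the other way, at 186 to 209 TPM in WT and 148, 153, 205 and 160 TPM in NSG libraries (-0.25). NSG replicate 3 was the highest NSG library for all 3 genes.

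Metallothionein 1 (Mt1, ENSMUSG00000031765, chromosome 8, 94179082 to 94180327), a small protein that binds zinc and copper, was at 335, 325, 345 and 364 TPM in WT libraries and at 692, 632, 450 and 476 TPM in NSG libraries. The group means were 342 ± 16.4 and 562 ± 118 TPM (SD, n = 4), a ratio of 1.64. The log2 fold change was 0.69 (SE 0.13, adjusted p = 0.39) and remained between 0.59 and 0.79 with any library left out. The NSG libraries were all above the WT libraries, though their SD was larger. The metal-handling list as a whole had no common direction, with 2 of its 6 tested genes higher on average, Mt1 included. The zinc exporter Slc30a1 was at 10.9 to 13.4 TPM in WT and 12.97 to 16.9 TPM in NSG libraries (0.29), and the zinc importer Slc39a10 at 18.3 to 25.9 and 11.2 to 22.2 TPM (-0.46). In Rag2-/- libraries Mt1 was at 657 to 745 TPM.

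Xlr (ENSMUSG00000054626, chromosome X, 53777118 to 53797706), a lymphocyte-regulated nuclear protein gene, was at 83.7, 81.5, 80.1 and 92.3 TPM in WT and 145, 154, 111 and 111 TPM in NSG libraries. Its NSG minus WT difference was 0.61 on the log2 scale (SE 0.12, adjusted p = 0.39) and was between 0.52 and 0.68 with any library left out. Its relative Xlr3c ran the other way, at 19.3, 27.5, 25.7 and 37.6 TPM in WT and 19.3, 19.04, 17.8 and 17.8 TPM in NSG libraries (log2 fold change -0.51). Xlr belongs to a multigene family, and how reads that fit several of its members were counted is not given, so these values are uncertain. The 3 Xlr4 genes overlapped between groups, with log2 fold changes from -0.03 to 0.03.

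Neutrophil genes did not shift together. In bulk RNA, fewer cells of a type and less RNA per cell cannot be told apart, here and in the lists that follow. Of 29 genes tested, 7 were higher and 3 lower by the unadjusted p, against 4.1% and 3.57% of all genes, and the median log2 fold change was 0.06. The median was -0.04 without NSG replicate 4 and 0.16 without WT replicate 1. Wfdc21 (ENSMUSG00000051748, chromosome 11, 83746940 to 83752642), which encodes a secreted whey-acidic-protein domain protein and is expressed in neutrophils, was at 650, 544, 607 and 654 TPM in WT and 858, 855, 862 and 746 TPM in NSG libraries (log2 fold change 0.44, SE 0.08, adjusted p = 0.39). Mmp9, the gelatinase of neutrophil tertiary granules, was at 1.46, 0.672, 2.38 and 1.20 TPM in WT and 4.93, 3.12, 3.79 and 3.55 TPM in NSG libraries (1.03). Most of its WT values are near or under the 0.767 to 1.29 TPM that 3 reads on 1 kb give in WT libraries. With a pseudocount of 0.1 in place of 1, the log2 fold change of Mmp9 was 1.47. The genes of the stefin A cluster, which encode inhibitors of cathepsins, were higher on average, Stfa1 at 102 to 263 against 250 to 328 TPM (0.81) and BC100530 at 6.02 to 17.5 against 14.8 to 28.7 TPM (1.07).

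Other markers of mature neutrophils went in both directions. S100a8, a calcium-binding alarmin, was at 39.8, 24.9, 44.4 and 38.99 TPM in WT and 44.6, 53.1, 52.7 and 65.1 TPM in NSG libraries (log2 fold change 0.55, adjusted p = 0.57), with the groups apart. Lactoferrin (Ltf), of the secondary granules, was at 1.12, 1.38, 2.04 and 3.19 TPM in WT and 0.521, 1.17, 0.102 and 0.597 TPM in NSG libraries (log2 fold change -0.87). With a pseudocount of 0.1 in place of 1, the log2 fold change of Ltf was -1.71. Most of these values are near or under the 0.618 to 1.29 TPM that 3 reads on 1 kb give. Retnlg was at 1.45 to 4.99 TPM in WT and at 1.82, 1.13, 0 and 0.347 TPM in NSG libraries. Padi4, which citrullinates histones, was at 49.0, 46.0, 45.5 and 54.3 TPM in WT and 33.3, 37.2, 26.5 and 39.3 TPM in NSG libraries (log2 fold change -0.51), with the groups apart. Ngp was alike at 11.2 to 19.7 and 13.98 to 18.8 TPM. S100a9, the partner of S100a8, overlapped at 21.6 to 31.2 and 17.3 to 37.9 TPM. These levels were low beside the Rag2-/- libraries, in which S100a9 was at 148 to 701 TPM and Ltf at 11.5 to 49.1 TPM.

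Among single surface receptors and membrane proteins, Cd300ld was at 115, 110, 119 and 137 TPM in WT and 161, 172, 189 and 146 TPM in NSG libraries (log2 fold change 0.47, adjusted p = 0.47). Its neighbor Cd300c2, also of the CD300 family of myeloid receptors, was at 26.9 to 33.3 and 38.4 to 40.5 TPM (0.39). Tarm1, an activating receptor of myeloid cells, was at 2.78 to 6.25 and 6.62 to 15.8 TPM (1.03), and Tmem154 at 9.66 to 12.6 and 15.6 to 17.3 TPM (0.55). All but Tarm1 were named after their values were seen. Tarm1 entered by its fold change among genes with separate groups. All 4 had every NSG library above every WT library, as 2.2% of all genes did, and adjusted p of at least 0.39. Their separation follows from how they were chosen and is no support.

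**Figure D2:**
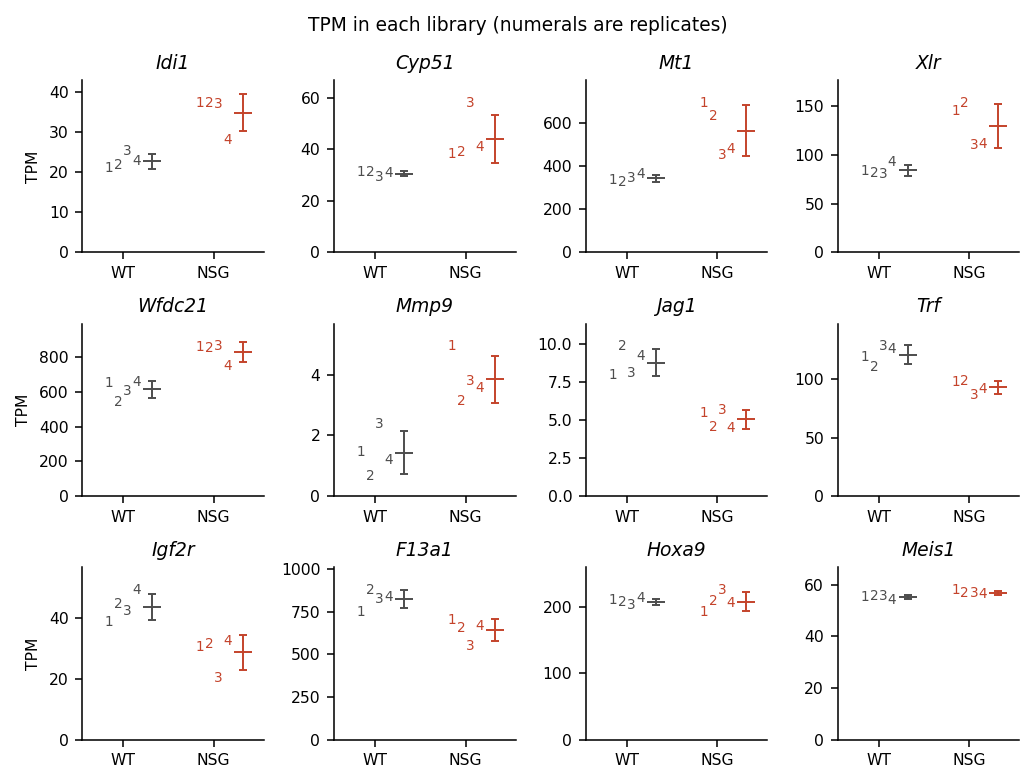
TPM of 12 genes in each library, with numerals standing for the replicates, and the mean with its SD (n = 4) beside them. The first 6 genes have every NSG library above every WT library, the next 4 every NSG library below, and Hoxa9 and Meis1 differ by less than 5% between the group means.

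Jag1 (ENSMUSG00000027276, chromosome 2, 137081456 to 137116644), a ligand of Notch receptors, was among the genes lower in NSG libraries. It was at 7.95, 9.87, 8.12 and 9.21 TPM in WT and 5.46, 4.54, 5.67 and 4.50 TPM in NSG libraries, 0.57 times the WT mean. The log2 fold change was -0.70 (SE 0.13, adjusted p = 0.39), with a range from -0.75 to -0.64 over the libraries left out in turn. Transferrin (Trf, chromosome 9), the iron carrier, was at 120, 111, 128 and 126 TPM in WT and 97.4, 98.5, 86.5 and 91.6 TPM in NSG libraries (-0.37, SE 0.07, adjusted p = 0.39). Both genes had groups that lay apart, as 2.39% of all genes did in this direction, with a like spread in each host. The rule for named genes takes low p and separate groups, so these traits are no support.

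A pair of neighboring genes on chromosome 17 was also lower. Igf2r (12682406 to 12769664), the imprinted receptor that takes insulin-like growth factor 2 and lysosomal enzymes to lysosomes, was at 38.8, 44.5, 42.1 and 49.2 TPM in WT and 30.4, 31.6, 20.1 and 32.5 TPM in NSG libraries (log2 fold change -0.61, adjusted p = 0.54). Slc22a3 (12418960 to 12507704), an organic cation transporter imprinted in the same cluster in some tissues, was at 19.9, 26.2, 27.0 and 34.2 TPM in WT and 20.1, 13.4, 14.8 and 15.97 TPM in NSG libraries (-0.70). Igf2r groups were apart, and Slc22a3 overlapped by NSG replicate 1. Of the 12 imprinted genes tested, 3 were lower and 0 higher by the unadjusted p, against 3.57% and 4.1% of all genes. The list's median was -0.02. In Rag2-/- libraries Igf2r was at 15.7 to 23.5 TPM.

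Monocyte and macrophage genes had lower means in 14 of 16 cases, against 7313 of all 15030 genes tested. The median log2 fold change was -0.19. By the unadjusted p, 3 were lower and 1 higher, against 3.57% and 4.1% of all genes. F13a1 (chromosome 13), coagulation factor XIII of monocytes, was at 749, 878, 827 and 838 TPM in WT and 700, 652, 551 and 667 TPM in NSG libraries (-0.36, SE 0.08, adjusted p = 0.54). The chemokine receptor Ccr2 was at 369 to 402 and 277 to 365 TPM (-0.22, or -0.14 without NSG replicate 3), and the scavenger receptor Cd163 at 9.72 to 11.2 and 7.25 to 9.57 TPM (-0.28). Cd68, a lysosomal glycoprotein of macrophages, ran the other way, at 91.6, 70.3, 90.7 and 90.7 TPM in WT and 116, 122, 94.3 and 107 TPM in NSG libraries (0.35). The complement genes C1qa, C1qb and C1qc of tissue macrophages were at 4.47 TPM or less in all 8 libraries, and Marco was listed at 0 in each. Without NSG replicate 3 the median was -0.14 and 12 of 16 means were lower.

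Of 47 inflammation and innate sensing genes tested, 30 had intervals inside 0.5, against 59.6% of all genes, and the median was -0.02. By the unadjusted p, 4 were lower and 0 higher, against 3.57% and 4.1% of all genes. Il6st, the shared signaling subunit of the IL-6 receptor family, was at 17.0, 17.6, 21.3 and 19.9 TPM in WT and 13.6, 13.96, 16.1 and 15.4 TPM in NSG libraries (log2 fold change -0.33, adjusted p = 0.54). The chemokine Ccl9 was at 328 to 356 and 276 to 309 TPM (-0.21). Outside the lists, and named after its values were seen, complement C4b was at 538, 576, 568 and 649 TPM in WT and 384, 464, 477 and 447 TPM in NSG libraries (-0.40, adjusted p = 0.54). Hdc, which makes histamine, was at 154, 187, 176 and 204 TPM in WT and 151, 138, 66.6 and 125 TPM in NSG libraries (-0.64), and without NSG replicate 3 its log2 fold change was -0.38. All 4 genes had every NSG library below every WT library, as 2.39% of all genes did.

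**Figure D3:**
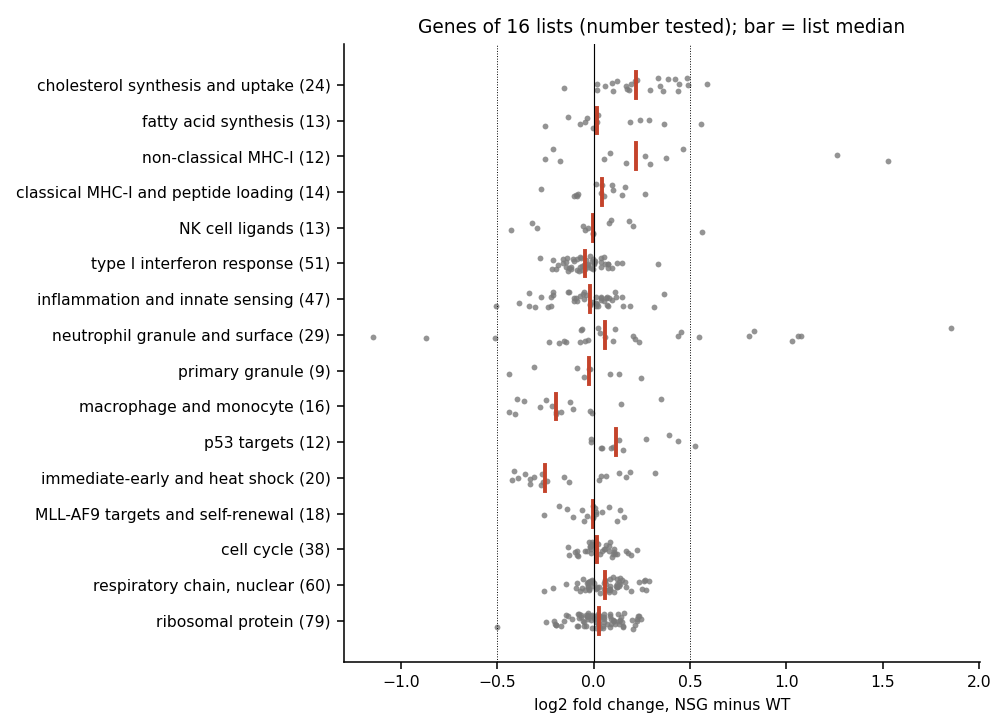
The log2 fold change (NSG minus WT) of each gene tested in 16 gene lists, with the number tested in brackets. Each grey point is a gene, the red bar is the list's median and dotted lines mark 0.5 in each direction; the cholesterol list sits to the right of 0 (median 0.22), and the self-renewal and cell cycle lists sit on 0.

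Genes of classical MHC class I were mostly near equal, as most abundant genes were. Of 14 genes of the classical molecules and the peptide-loading machinery, 13 had intervals inside 0.5 (median 0.04). The share inside was 89.7% among all genes averaging 20 TPM or more. H2-K1 was at 994, 1118, 1072 and 1188 TPM in WT and 1054, 1368, 1418 and 1088 TPM in NSG libraries, and its log2 fold change was 0.16 with an interval from -0.08 to 0.41. B2m, the light chain shared by class I molecules, was at 3495, 4012, 4033 and 4729 TPM in WT and 5263, 6802, 4265 and 3690 TPM in NSG libraries. The interval for B2m ran from -0.14 to 0.68, so a difference of 0.5 was not excluded there. Tapbp, or tapasin, which bridges class I molecules to the peptide transporter, was the member with all NSG libraries below WT (147 to 184 against 192 to 225 TPM, -0.27, adjusted p = 0.54).

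Non-classical class I genes of the H2-Q region were higher on average and very uneven among NSG libraries. Of 12 non-classical class I genes tested, 5 were higher and 1 lower by the unadjusted p, against 4.1% and 3.57% of all genes. All NSG libraries lay above all WT libraries for 0 of the 12 and below them for 1, against 2.2% and 2.39%. The median log2 fold change was 0.22, or 0.10 without NSG replicate 3. H2-Q6 (chromosome 17, 35424850 to 35430055) was at 13.4, 14.3, 20.4 and 29.7 TPM in WT and 41.0, 80.9, 104 and 26.6 TPM in NSG libraries (log2 fold change 1.53, SE 0.41, adjusted p = 0.54). H2-Q7 (35439155 to 35443773), a Qa-2 gene, was at 10.9, 9.20, 13.4 and 19.3 TPM in WT and 25.1, 52.3, 47.5 and 16.5 TPM in NSG libraries (1.26). NSG replicate 4 lay within the WT range for both, and replicates 2 and 3 lay far above it. The longest protein-coding transcripts of these genes are 94.5% identical over 1155 aligned bases, so reads can be split between them and the levels are uncertain. Cd1d1, which presents lipids to NKT cells and is not in that region, was lower and even, at 84.2, 93.1, 90.9 and 93.4 TPM in WT and 71.5, 77.5, 78.1 and 75.6 TPM in NSG libraries (-0.25, interval from -0.38 to -0.13).

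Ligands that NK cells read had no common direction. Of 13 tested, 2 were higher and 1 lower by the unadjusted p, against 4.1% and 3.57% of all genes, and the median was -0.00. Ulbp1, a ligand of the activating receptor NKG2D, was at 69.8, 60.5, 58.5 and 59.5 TPM in WT and 77.3, 75.0, 65.3 and 69.0 TPM in NSG libraries (log2 fold change 0.20, adjusted p = 0.61), with overlap. H2-T23, or Qa-1, which engages the inhibitory receptor NKG2A, was at 130 to 150 and 103 to 140 TPM (-0.17). The checkpoint ligand Cd274 (PD-L1) was at 24.5, 23.9, 24.3 and 25.7 TPM in WT and 32.4, 28.7, 32.8 and 23.4 TPM in NSG libraries (0.23), and Cd47, the signal that restrains phagocytes, at 642 to 686 and 523 to 667 TPM (-0.10). Of 9 checkpoint ligands tested, 8 had intervals inside 0.5, against 59.6% of all genes and 89.7% of those averaging 20 TPM or more.

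Interferon response genes were spread in both hosts, and the direction of the list depended on single libraries. Of 51 type I response genes, 35 had lower and 16 higher means in NSG, with a median of -0.05. By the unadjusted p, 0 were higher and 0 lower, against 4.1% and 3.57% of all genes. Intervals lay inside 0.5 for 30 of the 51, against 59.6% of all genes. Ifit1, an antiviral RNA-binding protein, was at 35.2, 61.2, 48.7 and 64.9 TPM in WT and 68.5, 81.8, 28.7 and 52.4 TPM in NSG libraries. NSG replicate 3 was the lowest of the 8 libraries for Ifit1, and without it the list's median was 0.10, with 36 of 51 means higher. Without NSG replicate 2 the median was -0.13 and 48 of 51 means were lower.

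Of 12 p53 target genes tested, 4 were higher and 0 lower by the unadjusted p, against 4.1% and 3.57% of all genes. The median log2 fold change was 0.11, and it was 0.07 without WT replicate 3, 0.19 without NSG replicate 2, and 0.17 without WT replicate 1 or 2. Cdkn1a, the cell cycle inhibitor p21, was at 55.3, 46.4, 34.3 and 35.3 TPM in WT and 58.7, 55.3, 58.3 and 56.9 TPM in NSG libraries (log2 fold change 0.44, adjusted p = 0.57). Zmat3 was at 3.86 to 4.84 and 5.11 to 8.73 TPM (0.53). Ccng1, or cyclin G1, overlapped at 170 to 193 and 182 to 279 TPM (0.27, or 0.15 without NSG replicate 1). Mdm2, the ligase that degrades p53 and is itself a target, was at 68.6 to 78.0 and 68.6 to 87.0 TPM (0.04). The NSG libraries were alike for Cdkn1a, and the WT libraries were the uneven ones.

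Markers of other cells bear on what the sorted samples held. Igkc, the constant region of the immunoglobulin kappa chain made by B and plasma cells, was at 4.05, 0.745, 18.0 and 14.7 TPM in WT libraries, at 0.676 TPM in NSG replicate 1, and listed at 0 in NSG replicates 2 to 4. Igha, the IgA heavy chain, was at 1.94, 0.594, 0.767 and 0.238 TPM in WT and listed at 0 in all NSG libraries. Both genes were above 0 in every WT library, so they were among the genes counted. Igha averaged under 1 TPM over the 8 libraries and was not tested. Most of its WT values were at or under the 0.767 to 1.29 TPM that 3 reads on 1 kb give in WT libraries. All 13 mitochondrially encoded genes are listed at 0 in every library, so a gene at 0 throughout may not have been counted. Ighm, the IgM heavy chain, did not follow Igkc and Igha, at 172 to 212 TPM in WT and 122 to 215 TPM in NSG libraries. Vpreb1 of the pre-B receptor was at 44.4 to 56.9 and 33.0 to 47.6 TPM. The B cell surface marker Ms4a1 was listed at 0 in all 8.

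Over the whole list of 20 B and plasma cell genes, 2 were listed at 0 in all 8 libraries and the summed level was 236 to 299.5 TPM in WT and 175 to 285 TPM in NSG libraries. The 21 T and NK cell genes summed to 12.7 to 17.7 and 11.8 to 17.2 TPM, with Cd3e, Trac and Ncr1 listed at 0 in all 8. The 13 erythroid genes found summed to 5.05 to 9.06 and 4.90 to 14.9 TPM. These sums overlapped between hosts, and their part in any gene's value was not tested.

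The NSG libraries differed from one another more than the WT libraries did. The median SD of a gene's log2(TPM + 1) was 0.19 over the 4 NSG libraries and 0.13 over the 4 WT libraries, a ratio of 1.42, and the SD was larger in NSG for 65.5% of genes. The ratio grew with the level, from 1.05 at a mean of 1 to 5 TPM to 1.88 at 100 TPM or more, where 82.1% of genes were more spread in NSG. Without NSG replicate 3 the ratio was 1.13. It was 2.63 over the cholesterol list, 2.98 over glycolysis and 2.19 over ribosomal proteins, against 0.71 over the neutrophil list. These are descriptions of 4 libraries a host and carry no test.

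**Figure D4:**
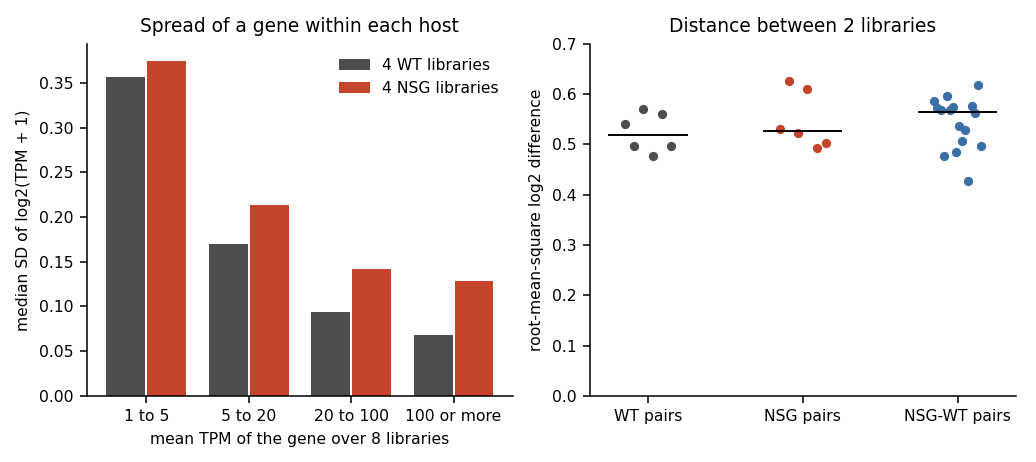
Left, the median SD of log2(TPM + 1) over the 4 libraries of each host (bars), by mean TPM of the gene. Right, the root-mean-square log2 difference over the genes tested for each pair of libraries (points), with the median as a line; NSG pairs run from 0.49 to 0.63 and WT pairs from 0.48 to 0.57.

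Distances between whole libraries overlapped within and across hosts. The root-mean-square log2 difference was 0.48 to 0.57 for the 6 WT pairs, 0.49 to 0.63 for the 6 NSG pairs and 0.43 to 0.62 for the 16 pairs across hosts, with medians of 0.519, 0.526 and 0.566 in that order. The closest pair of all was WT replicate 3 with NSG replicate 4 (0.43), and the farthest was NSG replicate 1 with NSG replicate 3 (0.63). NSG replicate 4 was nearer to WT replicates 1, 2 and 3 than to any other NSG library. That closest pair also held the deepest library of each host: the spacing of low values put the depth at 8000000 to 13570000 reads in WT, with replicate 3 the deepest, and at 9500000 to 16570000 reads in NSG, with replicate 4 the deepest. The part of depth in these distances was not tested. The first principal component, with 21.6% of the variance, had NSG replicates 1 and 2 at 0.56 and 0.41, NSG replicate 3 at -0.60 and the other 5 libraries between -0.23 and 0.21. The second, with 17.4% of the variance, had all 4 NSG libraries (-0.00383 to 0.528) above all 4 WT libraries (-0.583 to -0.0973).

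NSG replicate 3 stood apart from the other 7 libraries in single genes. Myeloperoxidase (Mpo), the peroxidase of primary granules, was at 537, 508, 593 and 574 TPM in WT and 710, 394, 219 and 444 TPM in NSG libraries. Adgre1, the macrophage antigen F4/80, was at 56.4 to 59.2 TPM in WT and 75.7, 50.4, 26.9 and 61.1 TPM in NSG libraries, and Siglecf at 26.3 to 36.2 TPM and 39.5, 38.8, 14.2 and 33.1 TPM. Hsph1, a heat shock protein, was at 40.1 to 53.3 TPM and 52.8, 46.6, 16.4 and 39.0 TPM. In each, replicate 3 was below all 7 other libraries. In the other direction the cold-inducible RNA-binding protein Cirbp was at 53.8 to 84.3 TPM in WT and 58.2, 59.5, 184 and 81.4 TPM in NSG libraries, and the ectoenzyme Cd38 at 51.8 to 63.3 TPM and 46.3, 53.02, 119 and 57.6 TPM.

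NSG replicates 1 and 2 stood apart by another group of genes. Atp5k (chromosome 5), a small subunit of ATP synthase, was at 168, 161, 153 and 132 TPM in WT and 40.6, 68.0, 210 and 184 TPM in NSG libraries. Rpl23a, a ribosomal protein, was at 1168, 1252, 1156 and 1050 TPM in WT and 455, 695, 1171 and 1196 TPM in NSG libraries. Slpi, a secreted inhibitor of neutrophil proteases, was at 3359 to 3659 TPM in WT and 2068, 2431, 3449 and 3256 TPM in NSG libraries. Hpgd, which breaks down prostaglandins, went the other way at 3520 to 3940 TPM in WT and 5600, 5392, 3629 and 3774 TPM in NSG libraries. Cebpa, the granulocyte transcription factor, was at 276 to 302 TPM in WT and 184, 201, 308 and 284 TPM in NSG libraries. For all 5 genes NSG replicates 1 and 2 lay outside the WT range on the same side, and replicates 3 and 4 lay nearer to it. Rag2-/- replicates 3 and 4 had 58.4 and 55.5 TPM of Atp5k against 110 and 85.1 in replicates 1 and 2. As a class, genes with 300 to 800 exon bases were not lower in NSG replicates 1 and 2 (median log2 difference from the WT mean 0.01 in each). That median was 0.11 in NSG replicate 3. For the 5489 genes with 4000 exon bases or more it was 0.052, -0.005, -0.065 and -0.018 in NSG libraries 1 to 4. In WT libraries it ran from -0.043 to 0.042 for these long genes. The part of gene length in the values above was not tested.

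**Figure D5:**
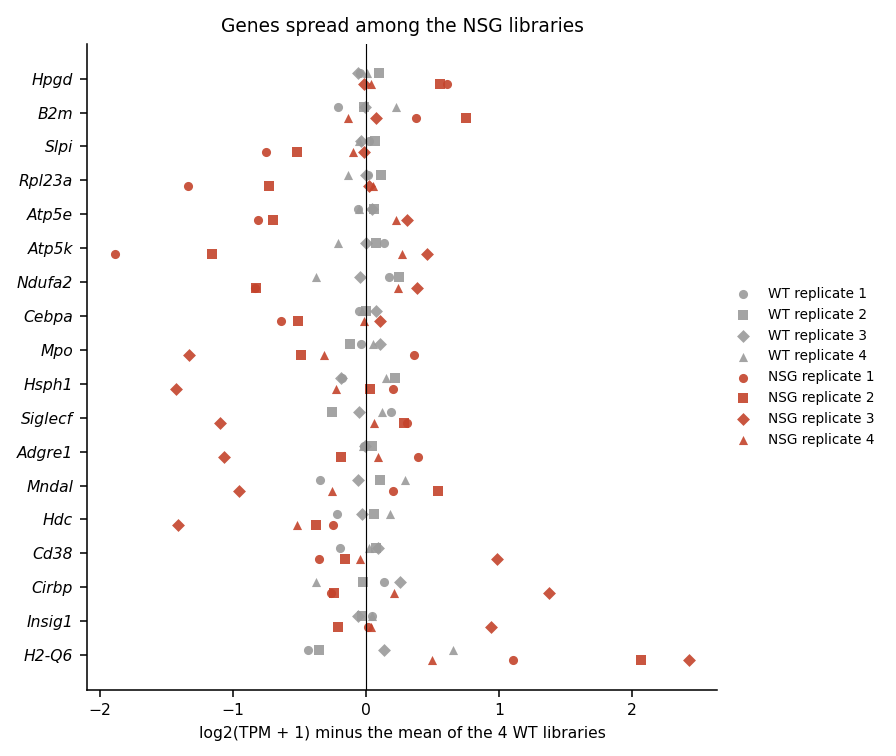
log2(TPM + 1) of 18 genes in each library, minus the mean of the 4 WT libraries (grey symbols WT, red symbols NSG; the shape gives the replicate). From Hpgd to Cebpa the circles and squares of NSG replicates 1 and 2 leave the WT range, and from Mpo to Insig1 the red diamond of NSG replicate 3 does.

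Over the 6887 protein-coding genes averaging 20 TPM or more, the 40 most spread among NSG libraries were described by their extremes, a choice made after seeing the data. NSG replicate 3 was the highest in 17 and the lowest in 12 of these 40, replicate 1 the highest in 10 and the lowest in 14, replicate 2 the highest in 6 and the lowest in 10, and replicate 4 the highest in 7 and the lowest in 4.

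Some genes varied as much within WT as within NSG. The immediate-early genes, which cells switch on within minutes of handling or growth signals, were uneven in both hosts. Fos was at 270, 118, 88.4 and 19.8 TPM in WT and 120, 47.5, 123 and 52.7 TPM in NSG libraries, and Fosb at 93.7, 40.5, 23.1 and 2.51 TPM and 33.6, 11.9, 20.6 and 9.58 TPM. WT replicate 1 was the highest library for both. Over 20 immediate-early and heat shock genes tested, the median log2 fold change was -0.25, and without WT replicate 1 it was 0.03.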

How the data were processed

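Per the study's methods, the authors aligned paired reads to mm10 with HISAT2, took raw gene counts and calculated TPM, the deposited unit. The counting tool and annotation are not given in the sources used here. The members and the 34 gene lists (744 genes) were chosen with earlier results of these data known. From the deposited TPM, log2(TPM + 1) was computed and fitted over the 8 libraries with limma 3.58.1 in R 4.3.3 (eBayes with a trend, no covariate), with Benjamini-Hochberg adjustment over 15030 genes. Calls needed an adjusted p below 0.05 and a log2 fold change beyond 0.5. Positions and exon lengths came from GENCODE M21 (GRCm38), which gave symbols for 55141 of 55401 genes. TPM keep no read counts, so depth was estimated from the spacing of low values (63.3% to 65.8% of them whole within 0.05 of a read) and carries no interval. Reads were counted without a stated strand.

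The rule for named genes took every called gene, the 12 largest and 12 smallest fold changes among genes with separate groups and a mean of at least 5 TPM, the 10 with the lowest p, the 10 with the highest mean TPM, the 10 with the largest SD over the NSG libraries at a mean of at least 5 TPM, the list genes, and the MHC class I and NK ligand genes the study names. The text prints a choice among these. Atp5k, Hpgd, Slpi, Siglecf, Cirbp, Cd38, Cd300ld, Cd300c2, Tmem154 and C4b fall outside it and were chosen after their values were seen. Alternatives were another pseudocount, other filters, quantile and median-ratio scaling, a fit of all 12 libraries, eBayes without a trend, a replicate block and each library left out. After the data were seen, fits of protein-coding genes and of genes with at least 300 exon bases were added. Figures were drawn with matplotlib 3.10.9 in Python 3.11.15.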

Additional observations from a re-analysis of the deposited data

Results flagged for a closer look

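A library far from the other 3 of its host, measured as its gap to the nearest library over the whole range and set against Dixon's 95% critical value, was found in 16 of 264 groups looked at, and chance flags about 1 in 20 (13.2). NSG replicate 3 was the highest for Cyp51 (0.844), Elovl6 (0.903), the cholesterol list (0.885) and the fatty acid list (0.971), and the lowest for Igf2r (0.855). NSG replicate 4 was the lowest for Idi1 (0.965) and Wfdc21 (0.942). NSG replicate 2 was the lowest for Tapbp (0.851) and Cd47 (0.863). NSG replicate 1 was the lowest for Rps27a (0.841) and the highest for Igkc (1), which was listed at 0 in the other NSG libraries. Among WT libraries, replicate 2 was the lowest for Hsd17b7 (0.907), Cd68 (0.962) and the checkpoint ligand list (0.851), and replicate 1 was the highest for Spi1 (0.895) and the inflammation list (0.942).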

How the results depend on the processing

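With eBayes without a trend, 2 genes were called higher in NSG, the small RNA genes Gm24265 and Gm23119. Over the 8 libraries left out in turn, 0 to 1 gene was called higher, Gm24265 without NSG replicate 2, and 0 lower. Without a filter on low values 15078 of 26218 genes had the interval inside 0.5. With a library left out, that count was 8084 to 8855, and the spread ratio was 1.13 (without NSG replicate 3) to 1.58. The other settings gave 0 calls in each direction and spread ratios of 1.3 to 1.48. Over all settings run, the median log2 fold change changed sign for some lists, among them type I interferon (-0.13 to 0.10), immediate-early (-0.40 to 0.03), B and plasma cell (-0.19 to 0.12), T and NK cell (-0.25 to 0.12), megakaryocyte (-0.19 to 0.34) and imprinted genes (-0.06 to 0.03). The causes were not tested.

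The replicate block gave 0 calls in each direction, with 8708 intervals inside 0.5. Same-numbered WT and NSG libraries had correlations of -0.021, -0.018, 0.016 and -0.011 in their deviations. Pairs with other numbers ran from -0.113 to 0.077. No pairing by number was seen, but with so few libraries these correlations cannot exclude it. Depth limits low genes: 3 reads on 1 kb of transcript corresponded to 0.618 to 1.29 TPM.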

Other observations

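Of 60 nuclear genes of the respiratory chain, 5 were higher and 0 lower by unadjusted p, against 4.1% and 3.57% of all genes. Uqcrb, a subunit of complex III, was at 265, 281, 261 and 260.1 TPM in WT and 327, 328, 318 and 309 TPM in NSG libraries (log2 fold change 0.26, adjusted p = 0.39 in limma). Cox7c, a subunit of complex IV, was at 310 to 349 and 378 to 421 TPM (0.27). Both had every NSG library above every WT library, as 2.2% of all genes did. In glycolysis, 1 of 20 genes was higher and 3 lower by the unadjusted p, against 4.1% and 3.57% of all genes. The hexokinase Hk1 was at 98.6 to 103 TPM in WT and 83.6 to 94.0 TPM in NSG libraries (-0.19), and the aldolase Aldoc at 3.24 to 5.25 and 4.85 to 11.2 TPM (0.66).

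Several of the genes with the lowest p were short. Gm24265, a small nuclear RNA gene of 141 bases, was listed at 0 in all WT libraries and at 5.10, 2.38, 5.01 and 4.38 TPM in NSG libraries. Gm23119, of 140 bases, was listed at 0 in WT and at 2.57, 4.79, 2.52 and 2.94 TPM in NSG libraries. Gm10974, of 126 bases, was at 1.71, 3.15, 2.03 and 5.03 TPM in WT and listed at 0 in NSG libraries. Of the 10 genes with the lowest p, 4 had under 200 exon bases, where few reads make a TPM of this size. Fitted over genes with at least 300 exon bases, the lowest adjusted p was 0.347.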
